A study of Homo sapiens with 6 samples.

Results

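The regions described here are stretches of open chromatin at gene starts that were called in every library of one treatment group while every library of the other lacked them. They were chosen by their peak calls in 6 Omni-ATAC libraries: peaks that overlapped by at least 1 bp were merged, and a region was kept when all 3 libraries of 1 group and none of the other had a peak in it and when it overlapped the 1000 bp on either side of a transcription start site (TSS) of a protein-coding gene. Of 89196 merged regions, 16783 lay at such a promoter, and 203 of these met the rule, 175 in DMSO (DMSO-only) and 28 in CB-6644 (CB-6644-only). Because the calls of all 6 libraries selected these regions, the presence or absence of peaks in a group is a description and was not tested.

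All libraries came from MM.1S, an established human multiple myeloma cell line, with 3 libraries after 120 nM CB-6644 for 72 h and 3 after DMSO, for which the labels give no dose or time. Per the study's methods, live cells were isolated by flow sorting before Omni-ATAC, so cells that had died were not measured. The replicate numbers name libraries, and nothing states whether they came from separate cultures. MM.1S is a single cell line. Of 8 genes that define plasma cells, 7 had a promoter region in all 6 libraries, among them SDC1, TNFRSF17, PRDM1, XBP1 and IRF4. The plasma cell gene JCHAIN had one in 1 DMSO and 2 CB-6644 libraries. Of 6 T cell markers, 5 had none in any library, and 4 of 6 myeloid markers had none. The T cell marker CD8A and the myeloid marker CD14 had one in all 6 libraries, and ITGAM, also myeloid, in 2 DMSO and 3 CB-6644 libraries. In these bulk libraries, fewer cells with an open site and less opening per cell cannot be told apart.

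Promoters are the stretches around a TSS where the transcription machinery assembles, and most promoters of widely used genes stay free of nucleosomes. Many genes have several start sites, and some of these are used only in particular cell types or under stress. CB-6644 is a small-molecule inhibitor of RUVBL1 and RUVBL2, ATPases shared by chromatin remodelers such as INO80 and SRCAP and by other multiprotein complexes. In Omni-ATAC, sequencing adapters are placed by a transposase, mostly where DNA is accessible, so accessible sites collect sequenced tags.

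The sequences below show the letters that recurred at the summits, the points of highest tag pile-up, of DMSO-only promoter regions. TGATGNAA is the composite element bound by ATF4 with a CEBP partner, which drives amino acid and stress response genes. It was found within 100 bp of the strongest summit in 18 of the 175 DMSO-only promoter regions. The 8 matches printed belong to members named by rule and overlap no annotated UTR. They are read on hg38 with 40 bases on either side, in the direction in which the element reads as given, and the capitals mark the element. They lie at chr11:61949749-61949836 on the + strand, chr12:57455037-57455124 on the - strand, chr7:123609392-123609479 on the + strand, chr6:75620567-75620654 on the - strand, chr1:109214957-109215044 on the + strand, chr15:83108683-83108770 on the - strand, chr11:123978116-123978203 on the - strand and chr19:18386846-18386933 on the + strand.
BEST1: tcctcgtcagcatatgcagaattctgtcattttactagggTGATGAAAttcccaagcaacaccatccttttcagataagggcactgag
INHBE: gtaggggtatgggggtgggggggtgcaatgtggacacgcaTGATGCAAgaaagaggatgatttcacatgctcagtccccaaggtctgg
ASB15: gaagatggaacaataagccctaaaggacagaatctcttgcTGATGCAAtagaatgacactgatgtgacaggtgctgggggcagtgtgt
SENP6: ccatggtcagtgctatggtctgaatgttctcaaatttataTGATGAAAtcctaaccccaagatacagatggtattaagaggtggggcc
SARS1: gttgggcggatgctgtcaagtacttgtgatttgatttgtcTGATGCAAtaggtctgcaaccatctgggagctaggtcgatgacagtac
TM6SF1: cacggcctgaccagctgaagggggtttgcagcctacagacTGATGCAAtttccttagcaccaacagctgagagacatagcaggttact
OR10S1: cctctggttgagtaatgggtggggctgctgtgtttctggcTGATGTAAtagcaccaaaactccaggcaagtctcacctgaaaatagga
GDF15: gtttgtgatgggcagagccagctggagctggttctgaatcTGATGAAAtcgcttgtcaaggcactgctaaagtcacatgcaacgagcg
In INHBE, ASB15, SARS1 and TM6SF1 the element read TGATGCAA. In BEST1, SENP6 and GDF15 it read TGATGAAA.

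Another motif searched for, GAAANNGAA, is the tandem core bound by interferon regulatory factors such as IRF4, a factor on which myeloma cells depend. It was found in 25 DMSO-only promoter regions, and the 4 that belong to members named by rule and overlap no annotated UTR are printed here with the core in capitals. They lie at chr12:32334515-32334603 on the + strand, chr15:49589203-49589291 on the - strand, chr18:63159018-63159106 on the + strand and chr18:63907848-63907936 on the + strand.
BICD1: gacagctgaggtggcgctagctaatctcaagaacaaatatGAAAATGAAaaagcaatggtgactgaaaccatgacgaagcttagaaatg
FAM227B: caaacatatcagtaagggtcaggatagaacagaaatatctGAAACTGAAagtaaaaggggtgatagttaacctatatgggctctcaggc
BCL2: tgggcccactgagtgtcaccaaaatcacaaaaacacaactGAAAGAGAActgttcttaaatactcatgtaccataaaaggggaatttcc
SERPINB10: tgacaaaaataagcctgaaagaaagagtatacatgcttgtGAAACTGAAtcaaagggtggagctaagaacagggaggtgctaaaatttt
The core read GAAACTGAA in FAM227B and SERPINB10, GAAAATGAA in BICD1 and GAAAGAGAA in BCL2.

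Neither set of letters was found within 100 bp of the strongest summit of a CB-6644-only promoter region. Sequences are shown for the elements they did hold, with the element in capitals. TGCTGAC is part of the MAF recognition element and is shown at ABLIM1 (chr10:114487593-114487679, - strand) and HSF4 (chr16:67166975-67167061, + strand). CAGGTG is an E-box, the site of E proteins and of ZEB and SNAI repressors, and is shown at SYVN1 (chr11:65132502-65132587, + strand) and TYROBP (chr19:35909303-35909388, + strand). The NF-kB element is shown at CXCL10 (chr4:76023570-76023659, - strand).
ABLIM1: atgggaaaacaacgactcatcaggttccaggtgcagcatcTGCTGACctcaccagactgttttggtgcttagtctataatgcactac
HSF4: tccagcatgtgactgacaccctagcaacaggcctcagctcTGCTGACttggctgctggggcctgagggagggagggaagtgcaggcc
SYVN1: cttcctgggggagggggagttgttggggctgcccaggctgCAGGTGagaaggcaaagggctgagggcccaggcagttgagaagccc
TYROBP: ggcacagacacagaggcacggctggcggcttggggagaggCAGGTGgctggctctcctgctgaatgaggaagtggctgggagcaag
CXCL10: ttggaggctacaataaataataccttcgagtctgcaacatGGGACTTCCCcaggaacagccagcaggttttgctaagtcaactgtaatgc
The ABLIM1 stretch also carries an E-box upstream of its MAF element, which was counted there.

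The DMSO-only regions were 175 of 16783 promoter regions, and the background share called DMSO-only was 1.04% at promoters and 5.3% among the 72413 regions away from promoters. The CB-6644-only regions were 28, or 0.167% of promoter regions, against 0.684% away from promoters. Counted by gene, 181 of the 13847 genes with a promoter region had a DMSO-only one (1.31%) and 28 had a CB-6644-only one (0.202%). Group-only regions were therefore a smaller share of promoter regions than of other regions in both directions. No gene had a member in both directions. The DMSO-only regions lay on 22 chromosomes and the CB-6644-only regions on 16.

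The ratio of 175 to 28 depended on how many peaks each library contributed. With equal numbers of the strongest peaks from each library, as many as the shortest list of 58563 holds, 60 promoter regions were DMSO-only and 64 were CB-6644-only. In the 4 long-fragment libraries (below) thinned to the same background and kept at a -log10 p of at least 20, the counts were 153 and 149, against 366 and 64 with the same limit and no thinning. With the 20000 strongest peaks of each library the counts were 69 and 45. Only 2 of the 175 DMSO-only and 0 of the 28 CB-6644-only members were among those regions. The size of the imbalance thus differed between settings. The CB-6644-only count was the higher with 58563 peaks from each library (64 against 60) and the lower with 20000 (45 against 69). Under equal numbers (58563 peaks from each library, here and below), 46 of the 175 DMSO-only and 20 of the 28 CB-6644-only members were still group-only. Of these, 21 DMSO-only and 8 CB-6644-only members were also group-only after thinning.

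**Figure D1:**
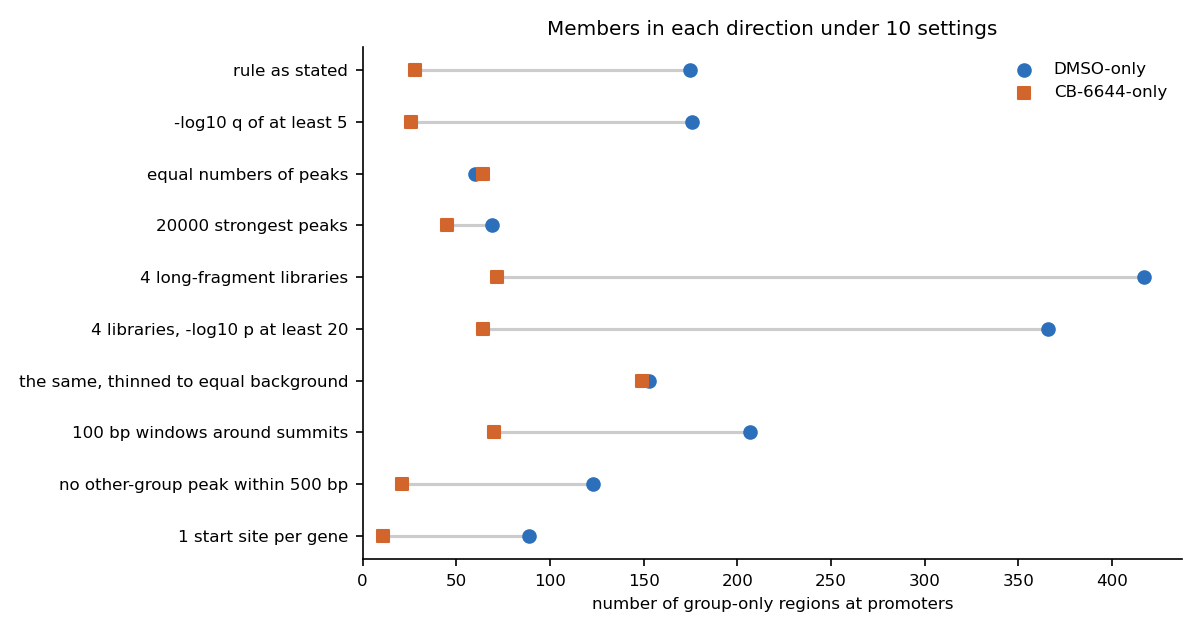
Number of group-only promoter regions (x axis) under 10 settings (y axis), with circles for DMSO-only and squares for CB-6644-only. The pair is 175 and 28 under the stated rule, 60 and 64 with equal numbers of peaks, and 153 and 149 after thinning to equal background.

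The lists give no read totals. The lowest background that the peak caller's values imply, a stand-in for depth, was 6.40 to 9.08 tags per kb in the DMSO libraries and 3.20 to 7.05 in the CB-6644 libraries, lowest in CB-6644 replicate 2. The lists held 65569 to 79020 peaks with DMSO and 58563 to 71781 with CB-6644. The shortest peak was 91 bp in DMSO replicate 1 and 65 bp in CB-6644 replicate 2, against 131 to 152 bp in the other libraries, which are called the 4 long-fragment libraries. In those 4 libraries alone the rule gave 417 DMSO-only and 72 CB-6644-only promoter regions. Over all 9 choices of 2 DMSO and 2 CB-6644 libraries the counts ran from 285 to 579 and from 53 to 107. The 4 long-fragment libraries are among these choices, so their counts had to lie within the range. The part of fragment length in single members was not tested.

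Members were weaker than most promoter regions, as were other promoter regions with calls in 3 libraries. Each peak was ranked within its own library by -log10 p, as a percentile from 0 to 100. The median percentile of the DMSO-only members was 20.5, 18.6 and 15.9 in DMSO replicates 1, 2 and 3, and that of the CB-6644-only members was 19.6, 29.5 and 19.96 in CB-6644 replicates 1, 2 and 3. The 13341 promoter regions called in all 6 libraries had medians from 82.3 to 87.3 in the same libraries. Members were also narrow, with a median of 289 bp for DMSO-only and 247.5 bp for CB-6644-only regions against 814 bp for the regions in all 6. The 379 promoter regions called in 3 libraries that mixed the groups (mixed regions) had a median of 217 bp, and the median over these of each region's own median percentile was 17.2, against 18.0 for DMSO-only and 24.7 for CB-6644-only members.

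**Figure D2:**
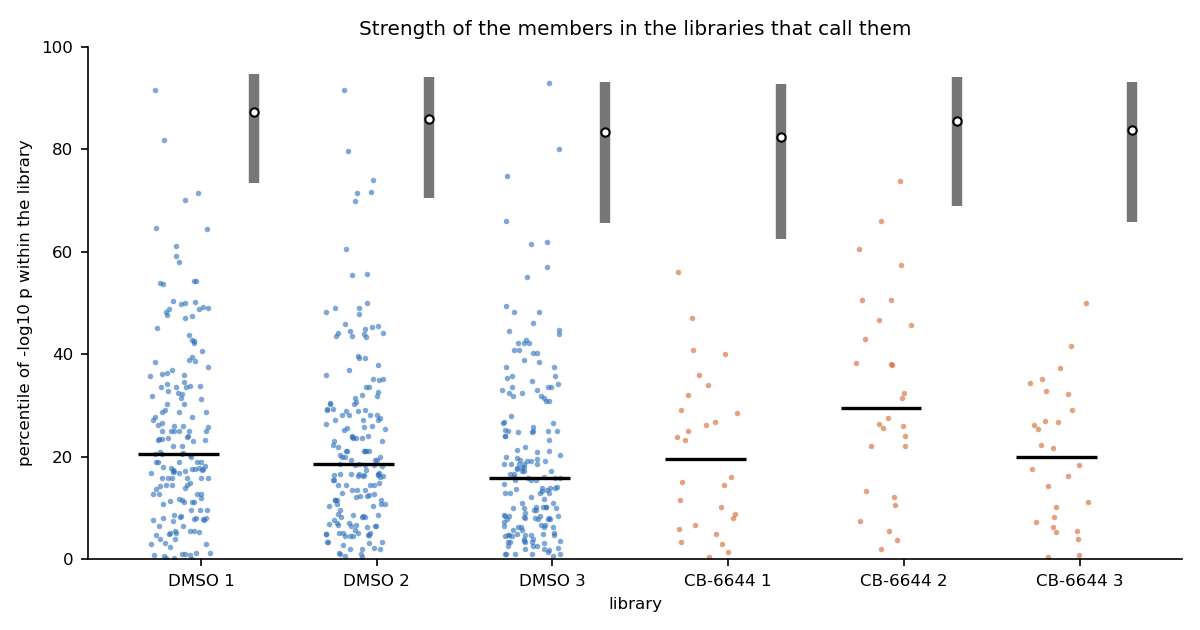
Percentile of -log10 p within the library (y axis) for each member in the 3 libraries that call it (x axis), with a black line at the median. Grey bars span the quartiles and white circles give the median of the 13341 promoter regions called in all 6 libraries, whose medians lie between 82.3 and 87.3.

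The strongest DMSO-only promoter region belonged to BEST1, a chloride channel gene of the retinal pigment epithelium. It spanned chr11:61949475-61950202, covered a TSS, and had its strongest summit upstream, outside every protein-coding gene. It ranked at percentiles of 91.6, 91.7 and 92.9 in DMSO replicates 1, 2 and 3, with pile-ups of 194, 266 and 263 tags. All 3 DMSO libraries placed it among their strongest peaks, and no CB-6644 library had a peak within 1580 bp. At an unchanged ratio to background, the pile-up would have been 200, 53 and 251 tags in CB-6644 replicates 1, 2 and 3. BEST1 had no other promoter region.

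INHBE encodes an activin subunit that liver cells release and that responds to endoplasmic reticulum stress. Its region at chr12:57454547-57455517 covered the canonical TSS over 971 bp, the widest of the DMSO-only members. The percentiles were 81.8, 79.7 and 80.2 in DMSO replicates 1, 2 and 3, with fold enrichment over local background of 12.2, 9.37 and 8.92. A separate region 391 bp downstream was called in all 6 libraries, so a site downstream of the INHBE start was still detected with CB-6644.

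SARS1, WARS1 and YARS1 encode cytosolic aminoacyl-tRNA synthetases, which charge tRNAs with serine, tryptophan and tyrosine. The SARS1 member lay at chr1:109214860-109215071, 878 bp downstream of the nearest TSS, with percentiles of 59.1, 60.5 and 42.8 in DMSO replicates 1, 2 and 3. The SARS1 promoter region around the TSS was called in all 6 libraries. The WARS1 member, shared with the divergent gene WDR25, covered the canonical TSS at chr14:100375339-100375721 and had percentiles of 35.8, 39.3 and 33.6. The YARS1 member lay 907 bp upstream of a noncanonical TSS at percentiles of 23.01, 35.1 and 31.8. Its strongest summit fell in an intron of another gene, S100PBP. YARS1 was singled out after its values were seen. Of 18 cytosolic synthetase genes with a promoter region, these 3 had a DMSO-only one and none had a CB-6644-only one, against 1.31% and 0.202% of all genes with a promoter region. The family was counted after the members were seen.

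GDF15 encodes a stress-induced circulating cytokine. Its region at chr19:18386805-18386977, 647 bp into the gene, had low percentiles of 17.6, 10.8 and 19.2 in DMSO replicates 1, 2 and 3. At an unchanged ratio to background its -log10 p would have been 4.27 in CB-6644 replicate 2, below the lowest value of that list, 5.39. In replicates 1 and 3 the expected values were 13.7 and 17.4. With GDF15, SARS1 and WARS1, the list of amino acid and integrated stress genes had 3 of its 32 genes with a promoter region among the DMSO-only genes (9.38%, against the background of 1.31%) and 0 among the CB-6644-only genes. The list was drawn up with earlier results of these data known, and the count was not tested. ATF4, DDIT3, ASNS and TRIB3 had no group-only promoter region.

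The mitochondrial protease gene LONP1 and the trafficking GTPase gene ARF1 also held the ATF4 element and were noted after their values were seen. Their percentiles were 42.2, 50.01 and 42.3 for LONP1 and 64.4, 47.9 and 40.3 for ARF1 in DMSO replicates 1, 2 and 3. Both regions lay downstream of a noncanonical TSS, at 925 bp and 558 bp.

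CTLA4, an inhibitory receptor of T cells, had a region 267 bp upstream of a noncanonical TSS at chr2:203853345-203853621 with percentiles of 50.4, 44.1 and 44.7 in DMSO replicates 1, 2 and 3. The nearest CB-6644 peak was 5851 bp away. CLEC6A, a C-type lectin receptor of myeloid cells, had a region over its canonical TSS at percentiles of 61.1, 71.5 and 61.5. TRIM22, an interferon-induced ubiquitin ligase gene, had one 210 bp downstream of a noncanonical TSS at 45.1, 48.9 and 49.3. All 3 members had no CB-6644 peak within 5000 bp.

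Genes of the plasma cell and myeloma list gave 2 DMSO-only members of 41 genes with a promoter region (4.88%, against the background of 1.31%). GPRC5D, a surface receptor targeted by bispecific antibodies in myeloma, had a member at chr12:12951054-12951314 with percentiles of 31.8, 28.9 and 35.3 in DMSO replicates 1, 2 and 3. IKZF3, the lymphoid factor Aiolos that lenalidomide degrades, had one 755 bp upstream of its canonical TSS at 17.2, 8.72 and 9.66. Each gene kept a separate promoter region called in all 6 libraries. BCL2, the survival factor, had a member 732 bp upstream of a noncanonical TSS at percentiles of 38.5, 43.9 and 25.3, beside 5 other promoter regions that were called in all 6 libraries.

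ASB15, an ankyrin repeat and SOCS box gene of skeletal muscle, had percentiles of 71.5, 71.7 and 74.8 in DMSO replicates 1, 2 and 3, and its region was 14773 bp from a CB-6644 peak. MUSK, the receptor kinase of the neuromuscular junction, had 54.0, 55.5 and 48.2, and its nearest CB-6644 peak was 138617 bp away, the farthest of all members. These genes had no other promoter region, as was also true of the betaine transporter gene SLC6A12, the olfactory receptor genes OR4C16 and OR10S1, TM6SF1, the pancreatic elastase gene CELA2A, SERPINB10, LIPH and the linker histone gene H1-5. Among these 8 genes the lowest percentile over the DMSO libraries ran from 24.04 at LIPH to 39.3 at SLC6A12.

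TMBIM6, an inhibitor of endoplasmic reticulum stress-induced death, and the dynein adaptor gene BICD1 had members over noncanonical start sites. TMBIM6 ranked at 70.0, 70.0 and 66.1 and BICD1 at 64.6, 74.0 and 61.9 in DMSO replicates 1, 2 and 3. Both genes had a promoter region elsewhere that was called in all 6 libraries. The same held for the SUMO protease gene SENP6 (54.4, 45.5 and 57.1), the calpain gene CAPN14 (58.0, 49.1 and 55.1) and FAM227B (49.8, 48.2 and 43.9).

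Members of the other lists were weak. DUSP6, a phosphatase that restrains ERK, had percentiles of 1.20, 20.3 and 4.62 in DMSO replicates 1, 2 and 3 at a region 279 bp from a CB-6644 peak. SDF2L1, an endoplasmic reticulum chaperone component, had 0.249, 4.76 and 3.31, and TP53INP1, a p53-induced autophagy gene, had 13.6, 6.55 and 11.7. The members lay 304, 583 and 490 bp downstream of a TSS, and each of these 3 genes had another promoter region called in all 6 libraries. No gene of the RUVBL1/2-containing complexes, of the E2F and DNA replication list or of the NF-kB pathway list, with 40, 46 and 33 genes that had a promoter region, had a member in either direction. Over all 10 lists, 10 of 349 genes (2.87%) had a DMSO-only member and 3 (0.86%) a CB-6644-only one, against 1.31% and 0.202% of all genes with a promoter region.

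**Figure D3:**
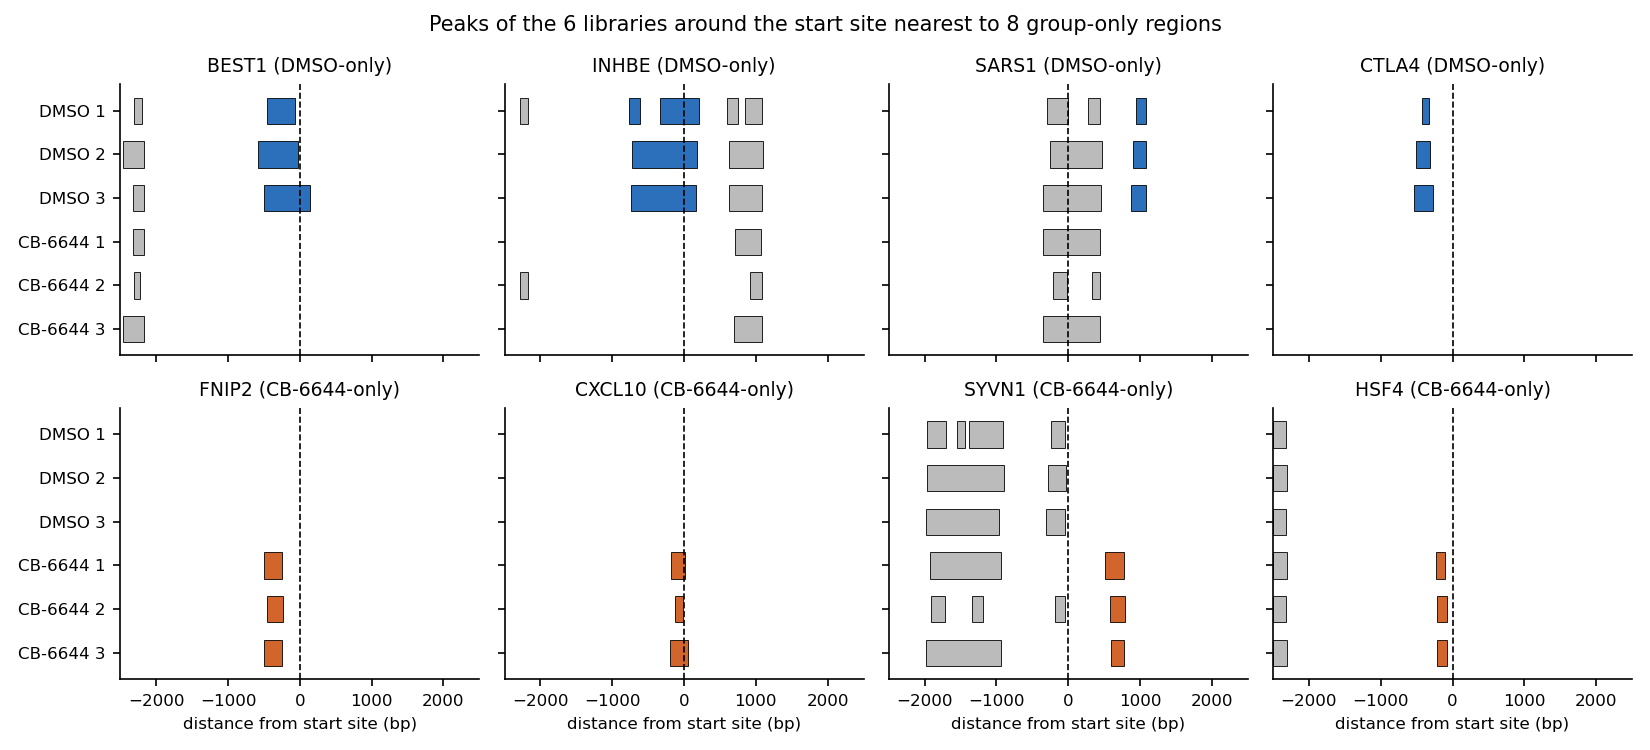
Peaks of the 6 libraries (rows) around the TSS nearest to 8 members, with distance from that TSS in bp on the x axis and transcription running to the right. Coloured bars are peaks of the member and grey bars are other peaks. At SARS1 the grey peaks around the TSS are in all 6 libraries and the member 878 bp downstream is in the 3 DMSO libraries.

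Among the CB-6644-only members the strongest was at FNIP2, a partner of folliculin in nutrient sensing. Its region at chr4:158805595-158805863 lay 231 bp upstream of a noncanonical TSS, with percentiles of 47.2, 73.8 and 50.1 in CB-6644 replicates 1, 2 and 3 and pile-ups of 53, 42 and 63 tags. At an unchanged ratio to background DMSO replicates 1, 2 and 3 would have had 64, 132 and 136 tags there. No DMSO peak lay within 3777 bp.

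The unfolded protein and secretory list had 2 of its 28 genes with a CB-6644-only member (7.14%, against the background of 0.202%) and 1, SDF2L1, with a DMSO-only one. SYVN1 encodes HRD1, the ubiquitin ligase that clears misfolded proteins from the endoplasmic reticulum, and its member lay 518 bp downstream of a noncanonical TSS with percentiles of 40.8, 31.5 and 26.8 in CB-6644 replicates 1, 2 and 3. PDIA6, a protein disulfide isomerase, had a member 553 bp upstream of a noncanonical TSS at 28.6, 25.7 and 26.9. Both genes kept promoter regions called in all 6 libraries. At SYVN1, a further peak just upstream of the same TSS was called in DMSO replicates 1, 2 and 3 (percentiles of 79.1, 65.5 and 61.2). Among the CB-6644 libraries it was called in replicate 2 only (78.3). ARFGAP2, a regulator of Golgi vesicle coats, had a member 460 bp downstream of a TSS at 25.03, 26.3 and 32.8, with 243 bp between it and a DMSO peak.

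CXCL10 encodes an interferon-induced chemokine and was the interferon list's CB-6644-only gene. Its member covered the canonical TSS at chr4:76023446-76023690, with percentiles of 29.2, 27.6 and 26.2 in CB-6644 replicates 1, 2 and 3 and pile-ups of 22, 10 and 24 tags. It was the only promoter region of CXCL10, and no DMSO peak lay within 6657 bp. The summit lay 108 bp upstream of the TSS. TRIM22, of the same list, was in the opposite direction. Each direction thus had 1 of the 49 genes with a promoter region (2.04%). Over all genes with a promoter region the shares were 1.31% DMSO-only and 0.202% CB-6644-only.

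HSF4, a heat shock factor, had percentiles of 32.0, 66.0 and 32.3 in CB-6644 replicates 1, 2 and 3 at a region 73 bp upstream of a noncanonical TSS. ABLIM1, an actin-binding protein gene, had 40.1, 50.6 and 41.6, and ARHGEF2, an exchange factor for RhoA, had 23.2, 38.1 and 25.4. CB-6644 replicate 2, the library with the lowest background, gave the highest rank in each of these members. EEF1D, a translation elongation factor subunit, had 23.9, 46.6 and 17.6, with a DMSO peak 312 bp away.

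ITIH1, a liver-secreted hyaluronan-binding protein, had percentiles of 35.99, 45.7 and 37.3 in CB-6644 replicates 1, 2 and 3. The olfactory receptor gene OR1J1 had 26.8, 32.5 and 35.2, and FRMD1 had 26.1, 43.0 and 21.6. At TYROBP, a signalling adaptor of myeloid and natural killer cells, the values were 34.0, 57.4 and 8.16, and at LILRA2, an activating receptor of myeloid cells, they were 7.94, 22.1 and 22.3. Ranks differed widely between libraries at the sodium-calcium exchanger gene SLC24A4 (8.72, 60.6 and 29.0), the beta-defensin gene DEFB129 (56.0, 1.92 and 18.3) and the hair keratin-associated gene KRTAP9-4 (0.344, 50.6 and 10.1). KRTAP9-4, the olfactory receptors and DEFB129 belong to families with similar copies, where reads may be split between copies. CAPSL and MYBPC1, the latter a muscle thick filament gene, had values of 15.0, 22.1 and 14.2 and of 5.87, 5.49 and 16.2, respectively.

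Where members sat at the gene differed from the usual promoter region. Of the DMSO-only members, 108 of 175 lay within 1000 bp of the MANE Select or Ensembl canonical TSS (61.7%, 95% Wilson interval 54.3 to 68.6), as did 13 of 28 CB-6644-only members (46.4%, 29.5 to 64.2). The share was 87.0% for regions called in all 6 libraries and 82.7% for all promoter regions. For the 379 mixed regions it was 66.0%, inside the interval of the DMSO-only members and above that of the CB-6644-only members. A TSS was covered by 34.9% of the DMSO-only members and 35.7% of the CB-6644-only ones, by 34.0% of the mixed regions and by 88.0% of those in all 6. The intervals cover counting error only.

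Most members had company at their gene. Another promoter region called in all 6 libraries was present at the gene for 107 DMSO-only members (61.1%, 53.8 to 68.1) and 17 CB-6644-only members (60.7%, 42.4 to 76.4), against 38.0% of all promoter regions and 65.2% of the mixed regions. The member was the only promoter region of its gene in 51 DMSO-only cases (29.1%) and 11 CB-6644-only cases (39.3%). Among the mixed regions the share with no other promoter region was 24.3%, below both, and inside the interval of the DMSO-only members (22.9 to 36.3) and of the CB-6644-only members (23.6 to 57.6).

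The shared region beside a member was read in every library. At genes with DMSO-only members, 160 shared promoter regions had a median percentile of 82.2 ± 3.0 with DMSO and 80.4 ± 3.2 with CB-6644 (mean ± SD of the library medians, n = 3 each), a difference smaller than the spread between libraries. The median change from DMSO to CB-6644 was -0.94 percentile points, against -1.22 over all 13341 shared promoter regions. At genes with CB-6644-only members the 27 shared regions stood at 76.7 ± 4.3 and 78.1 ± 4.8, with a median change of -0.34. The median changes at both sets of genes were smaller in size than that over all shared regions.

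Distance to the other group was uneven. A peak of the other group lay within 500 bp of 52 DMSO-only members (29.7%) and of 7 CB-6644-only members (25%). More than 5000 bp separated 55 DMSO-only and 11 CB-6644-only members from any such peak. Near the 1000 bp limit, KCNMB1 (981 bp) and QSER1 (965 bp) were just inside and ZNF217 (1027 bp) and SEC31A (1041 bp) just outside among DMSO-only regions. TYROBP (996 bp) and GSDMA (973 bp) were just inside and NEGR1 (1122 bp) and SPRING1 (1139 bp) just outside among CB-6644-only regions. At the call threshold, 259 promoter regions had calls in 3 DMSO libraries and 1 CB-6644 library, and 257 in 2 and 0. The same numbers in the other direction were 36 and 40.

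The rule was also applied to 2 DMSO and 2 CB-6644 libraries and read in the 1 library of each group that was left out, over all 9 such pairs. Promoter regions chosen as DMSO-only on 4 libraries had a peak in the DMSO library left out in 58.9% to 84.8% of cases and in the CB-6644 library left out in 20% to 46.3%, and the DMSO share was higher in 9 of 9 pairs, by 12.6 to 63.5 percentage points. Promoter regions called in 1 DMSO and 1 CB-6644 library of the 4 served as the background, and there the DMSO share was higher in 8 of 9 pairs, by -0.76 to 42.5 points. With DMSO replicate 1 and CB-6644 replicate 3 left out, the background difference of 38.3 points exceeded the 33.3 of the chosen regions. In the other direction the CB-6644 library left out held more of the chosen regions in 8 of 9 pairs. The exception left out DMSO replicate 1 and CB-6644 replicate 1, where 57.9% of 107 regions had a DMSO peak and 46.7% a CB-6644 peak. The pairs share libraries and are not independent.

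**Figure D4:**
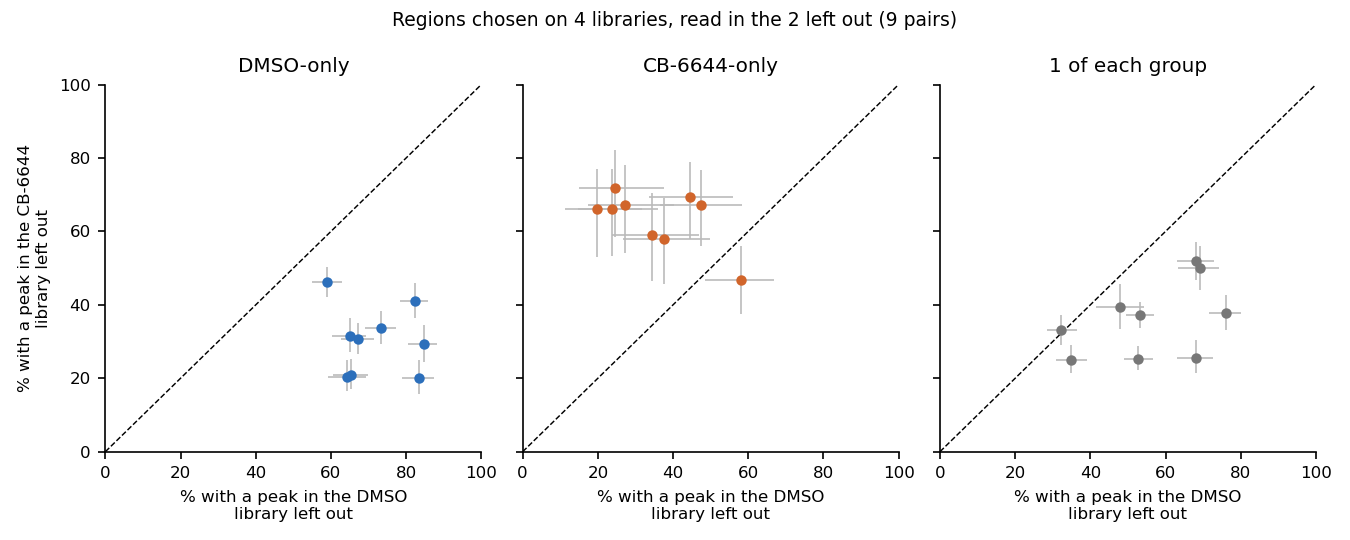
Percent of regions with a peak in the DMSO library left out (x axis) and in the CB-6644 library left out (y axis) for the 9 pairs, with 95% Wilson intervals and a dashed line of equal shares. All 9 DMSO-only points lie below the line, 8 of 9 CB-6644-only points lie above it, and 8 of 9 background points lie below it.

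Expected values were computed for each member in the libraries of the other group. If each DMSO-only member had kept its ratio to background, all 175 would have passed the lowest -log10 p of the lists of CB-6644 replicates 1 and 3, and 72 (41.1%, 34.1 to 48.5) would have passed in replicate 2, where the expected median pile-up was 7 tags. BEST1, INHBE, SARS1, WARS1, CTLA4, TRIM22, GPRC5D and BCL2 were among the 72, and GDF15, IKZF3, TP53INP1, DUSP6 and SDF2L1 were not. For the other direction all 28 members would have passed in each DMSO library, with expected median pile-ups of 25.5, 53 and 55 tags. Not every region of such strength was called. Of promoter regions with 3 DMSO calls and a similar expected strength, 72.7%, 84.2% and 76.8% had a peak in CB-6644 replicates 1, 2 and 3. In the other direction, 95.5%, 96.0% and 91.4% had a peak in DMSO replicates 1, 2 and 3. Both sets include members, which the rule fixes as not called in the other group, so selection lowers these shares. A missing peak means that the site was not detected, not that it was closed.

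The sequence at the summits was less rich in GC than over all promoter regions, and that of the mixed regions lay between. The median GC content of the 201 bp window was 57.2% for the DMSO-only members and 52.0% for the other direction, against 62.7% in the mixed regions and 67.7% over all promoter regions. The ratio of observed to expected CpG was 0.40 and 0.20 in the members, 0.57 in the mixed regions and 0.83 over all. SP/KLF letters (GGGCGG) were present in 29.1% of the DMSO-only members and in 14.3% of the CB-6644-only ones, against 41.2% of the mixed regions and 59.6% of all promoter regions, and NRF1 letters (GCGCNNGCG) in 8.57% and 0 of 28 against 14.5% and 21.2%. ETS letters (CCGGAAG) were in 2.86% and 0 of 28 against 4.22% and 11.7%.

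The ATF4-CEBP element was present in 18 DMSO-only members (10.3%, 6.61 to 15.7), in 1.35% of all promoter regions and in 1.32% of the mixed regions. It was in 0 of 28 CB-6644-only members (interval up to 12.1%) and in 12.9% of DMSO-only regions away from promoters. Within GC content of 50 to 60% it was in 9 of 37 DMSO-only members (24.3%) against 2.78% of all promoter regions, and below 50% in 9 of 63 (14.3%) against 5.39%. In the other 75 members, above 60%, none was found in this window. Besides those printed above, CLEC6A, WARS1, LONP1, ARF1, IL21R, ITGB2, ABRACL, CASK, PRSS3 and SH3BGR held it. Of the 21 DMSO-only members that were also group-only under equal numbers and after thinning, 10 held it (47.6%, 28.3 to 67.6), namely BEST1, INHBE, ASB15, CLEC6A, SENP6, SARS1, LONP1, ARF1, WARS1 and TM6SF1. Among the 60 regions that were DMSO-only under equal numbers, 13 held it (21.7%), and among the 153 after thinning, 14 did (9.15%). The 21 members were also selected by strength. The -log10 p limit of 20 used with thinning left 53 of the 175 members even without thinning. No share was computed for other regions of similar strength.

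The IRF core was present in 25 DMSO-only members (14.3%, 9.87 to 20.2), against 4.83% of all promoter regions and 6.6% of the mixed regions. It was in 0 of 28 CB-6644-only members (interval up to 12.1%). The share of DMSO-only members with the core varied with base composition. Below 50% GC it was in 18 of 63 members (28.6%) and in 20.3% of all promoter regions, and at 50 to 60% in 10.8% against 8.15%. BCL2, BICD1, FAM227B, SERPINB10 and YARS1 were among the 25 members that held the core. TATAAA was in 16 DMSO-only members (9.14%) against 2.41% of all promoter regions, among them CTLA4, ASB15 and SENP6. Its share also varied with base composition. Below 50% GC it was in 14 of 63 members (22.2%) against 10.7% of all promoter regions, and at 50 to 60% in 0 of 37 against 3.87%. Among DMSO-only regions away from promoters the shares were 23.1% for the IRF core and 12.3% for TATAAA. All matches were searched on both strands, and a match is not evidence of binding.

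The E-box was in 12 of 28 CB-6644-only members (42.9%, 26.5 to 60.9) against 19.2% of all promoter regions and 28.0% of DMSO-only members. The MAF letters were in 4 (14.3%, 5.70 to 31.5), ABLIM1, HSF4, OR1J1 and MYBPC1, against 2.99% of all and 1.71% of DMSO-only members. The NF-kB element was in 5 (17.9%, 7.88 to 35.6), CXCL10, FRMD1, HSF4, ITIH1 and SLC24A4, against 7.04% of all. The lower bound of the NF-kB interval lay close to the share of all promoter regions. Among the 64 regions that were CB-6644-only under equal numbers, the shares of E-box, MAF and NF-kB were 34.4%, 7.81% and 10.9%. In the mixed regions they were 23.5%, 2.11% and 8.71%. CB-6644-only regions away from promoters had 41.4%, 18.0% and 11.9%, so these elements were not particular to CB-6644-only regions at promoters.

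**Figure D5:**
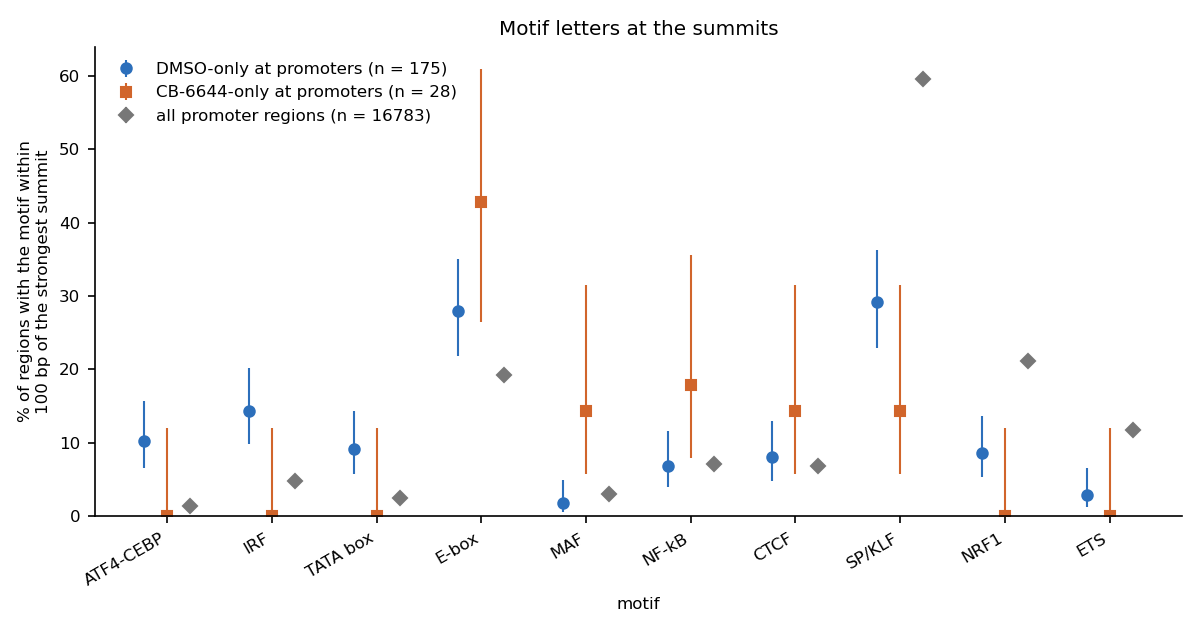
Percent of regions with each motif within 100 bp of the strongest summit (y axis) for 10 of the 18 motifs searched (x axis), with 95% Wilson intervals. DMSO-only members (circles) stand at 10.3% for ATF4-CEBP against 1.35% of all promoter regions (diamonds), and CB-6644-only members (squares) at 42.9% for the E-box against 19.2%.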

How the data were processed

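Omni-ATAC was measured in 6 MM.1S libraries. The authors deposited 1 MACS peak list per library on hg38, with the fold enrichment (a linear ratio) at the summit and the -log10 p and -log10 q of each peak. The submitters' processing notes name Bowtie2 2.4.2 and MACS3 3.0. The MACS settings are not given in the sources used here. Read counts, which the authors tested with edgeR, were not analysed here.

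Peaks on 24 chromosomes were merged and matched to the TSSs of all protein-coding transcripts of GENCODE 44. Tag pile-ups and background were solved from the deposited fold and -log10 p values, which matched 100% of peaks within 0.1%. Reading the shortest peak as fragment length is an inference. Depth is otherwise unknown. Shares carry 95% Wilson intervals, which cover counting error only. Expected values assumed an unchanged ratio to background. Motifs were searched on both strands of 201 bp windows. Scripts were checked on simulated data. The work used pandas 2.3.3, scipy 1.17.1 and numpy 2.4.6 in Python 3.11.15, with figures by matplotlib 3.10.9.

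The members, gene lists and motifs were chosen with earlier results of these data known, and no test was run. Named members were, in each direction, the 12 with the highest lowest percentile, the next 8 with no other promoter region at their gene, all at listed genes, and those nearest to the limits of the rule. Other genes named were chosen after their values were seen. Alternative peak thresholds, numbers, libraries, overlaps, windows and start sites were tried.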

Additional observations from a re-analysis of the deposited data

How the results depend on the processing

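No paired analysis was made, because the labels do not say whether any DMSO and CB-6644 libraries belong together. No result comes from a test. Against 175 DMSO-only and 28 CB-6644-only promoter regions, the counts were 60 and 64 with equal numbers of peaks, 69 and 45 with the 20000 strongest peaks, 417 and 72 in the 4 long-fragment libraries, 153 and 149 after thinning these, 366 and 64 at the same limit without thinning (added after seeing the data), 232 and 16 where peaks had to cover 50% of the region, 207 and 70 with windows around summits, 432 and 68 with calls in at least 2 of 3 libraries, 108 and 23 with a window of 500 bp, 322 and 51 with 2500 bp, and 89 and 11 with gene records as TSS. Leaving out 1 library gave 224 to 311 and 36 to 49. The DMSO-only count passed 1.5 times its value without DMSO replicate 1 (277), DMSO replicate 3 (311) or CB-6644 replicate 2 (306), and the CB-6644-only count without DMSO replicate 1 (49) or CB-6644 replicate 1 (45). Of 20 alternatives, 9 left the DMSO-only count and 8 the CB-6644-only count within 1.5 times. The regions counted under an alternative were not always the members. With the 20000 strongest peaks, 2 of the 175 DMSO-only and 0 of the 28 CB-6644-only members were recovered. In every alternative, 1 DMSO-only and 0 CB-6644-only members were. The DMSO-only share near the canonical TSS became 71.1% with 50% cover, 52.0% with no peak of the other group within 500 bp, 33.5% with 2500 bp and 77.5% with gene records. The CB-6644-only share became 71.1% with the 20000 strongest peaks, 65.7% with summit windows, 25.5% with 2500 bp and 72.7% with gene records. The share of DMSO-only regions with another promoter region in all 6 libraries became 24.6% with the 20000 strongest peaks, 27.6% with 50% cover, 46.3% with the 500 bp gap, 50% with a 500 bp window, 72.0% with 2500 bp and 41.6% with gene records. That of CB-6644-only regions became 24.4%, 31.2% and 9.09% with the 20000 strongest peaks, 50% cover and gene records. The causes were not tested. Within 50 bp of the summit, ATF4-CEBP was in 6.86%, IRF in 8.57% and TATAAA in 2.86% of DMSO-only and the E-box in 25% of CB-6644-only regions. The motif shares under equal numbers and thinning were added after seeing the data. After thinning, ATF4-CEBP was in 9.15% of DMSO-only and the E-box in 26.2% of CB-6644-only regions.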

Other observations

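Families were counted after the members were seen, and the shares over all genes with a promoter region were 1.31% DMSO-only and 0.202% CB-6644-only. Of 400 zinc finger (ZNF) genes with a promoter region, ZNF212, ZNF385A and ZNF608 had a DMSO-only one and ZNF337 a CB-6644-only one. Of 45 interleukin and interleukin receptor genes, IL18RAP and IL21R had a DMSO-only one. There were 14 olfactory receptor genes with a promoter region, of which OR4C16 and OR10S1 had a DMSO-only one and OR1J1 a CB-6644-only one. By distance, 26 of 175 DMSO-only members (14.9%) had another DMSO-only region within 50 kb, as did 15.1% of the promoter regions called in all 6 libraries. The strongest summit lay in an intron in 98 DMSO-only and 15 CB-6644-only members, in a UTR in 25 and 6, and in a coding exon in 17 and 3.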
